A study of Danio rerio with 13 samples.

Results

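The T-type leukemias described here were 7 of 13 RNA-seq libraries of zebrafish acute lymphoblastic leukemia, and they divided into a first form of 3 leukemias (hMYC-9, hMYC-10 and hMYC-11) and a second form of 4 (hMYC-2, hMYC-6, hMYC-8 and hMYC-14). Every fish of the series, in both forms and in the remaining libraries, carried a human MYC transgene driven by the promoter of rag2, a recombinase gene of lymphoid precursors, and eGFP driven by that of lck, a kinase gene of T cells. GFP+ cells were sorted from the total body, and the labels name no untreated, wild-type or transgene-free control and give no age. Each library is a separate sample by its label, but the labels do not say from how many fish it came, so spread between libraries is spread between these samples. Human MYC itself was not analysed here.

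Both divisions were chosen by measured values. A leukemia was selected as T-type when blnk (ENSDARG00000042722), the B cell linker adaptor, lay below 4 log2 CPM, where log2 CPM is the log2 of CPM, a read count adjusted for the size of its library. A prior count of 2 was added, so that a gene without a read has the value -2.43. T-type leukemias were then selected into forms by a gene named PTPRZ1 (ENSDARG00000051814), above 6 log2 CPM in the first form and below 4 in the second. Among the T-type leukemias blnk was highest at 3.55 in hMYC-2, and the nearest leukemia outside the threshold was hMYC-13 at 4.65. For PTPRZ1 the lowest library of the first form was hMYC-9 at 6.96, and the highest of the second form was hMYC-6 at 3.60. The 5 other leukemias (hMYC-3, hMYC-4, hMYC-5, hMYC-12 and hMYC-13) are used only for comparison, and hMYC-1 was left out because its column also holds counts of hMYC-10 to hMYC-14. Since the forms were made from measured values, differences between them are given as descriptions, without p-values.

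T cell development passes from early precursors, which still lack a rearranged receptor, through cortical thymocytes that express both cd4 and cd8 together with the recombinase genes, to mature cells that leave the thymus. Notch signalling drives entry into the T lineage, and signals through the T cell receptor carry cortical cells towards maturity. In zebrafish, MYC transgenes under the rag2 promoter are known to give T cell and B cell leukemia, and the lck reporter is bright in T cells and dim in B cells.

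All 3 libraries of the first form carry the description letter d. Of the second form, hMYC-2, hMYC-6 and hMYC-8 carry the letter c and hMYC-14 the letter d. The meaning of the letter is not stated, and for genes whose level follows it, form and letter cannot be told apart outside hMYC-14. The 7 libraries held 8166453 counts (hMYC-2) to 12297780 counts (hMYC-8), and scaling factors lay between 0.741 (hMYC-2) and 1.087 (hMYC-9). Of 32105 gene identifiers, 13987 had a mean count of at least 10 over the 7 libraries and were compared. Over these genes Pearson's r between libraries was 0.840 to 0.917 within the first form, 0.854 to 0.905 within the second and 0.783 to 0.906 between forms. These ranges overlap: hMYC-9 correlated more closely with hMYC-8 (0.906) and hMYC-6 (0.901) than with hMYC-10 (0.840), so that the forms are a division by a set of genes and not by the whole transcriptome.

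Both T lineage markers were high in each of the 7 leukemias. The gene lck (ENSDARG00000102525) stood at 10.44, 10.35 and 10.36 log2 CPM in hMYC-9, hMYC-10 and hMYC-11, and at 11.38, 10.23, 10.24 and 10.33 in hMYC-2, hMYC-6, hMYC-8 and hMYC-14. Values are given in this order of libraries below. For bcl11ba (ENSDARG00000062510), a transcription factor of T lineage commitment, the values were 8.54, 8.85 and 8.45 against 9.02, 8.53, 8.78 and 7.83. The forms overlapped for both markers. Among the 5 other leukemias lck ranged from 5.47 to 10.37 and bcl11ba from 6.45 to 7.92, so that both overlapped the T-type leukemias, and hMYC-14 lay below hMYC-12 (7.92) and hMYC-13 (7.85) for bcl11ba.

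Fewer genes were higher than lower in the first form, and the lower ones held genes of mature and cytotoxic T cells, Notch target genes, B cell genes and immediate early genes. A gene is called apart here when every library of one form lay at least 1 log2 unit (2-fold) from every library of the other. By this rule 30 of 13987 genes (0.214%) were apart and higher in the first form, and 247 (1.77%) were apart and lower. The 30 include the selecting gene PTPRZ1, which the selection itself set apart, and the 247 include blnk, which selected the T-type leukemias. With any gap above 0 counted, 759 genes (5.43%) had no overlap and were higher in the first form, and 1309 (9.36%) had no overlap and were lower. The median difference over all genes, first form minus second, was -0.03 log2 units, a value that the scaling keeps near 0. With library totals alone as the scale it was 0.12, and 40 genes were then apart and higher and 194 apart and lower.

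**Figure D1:**
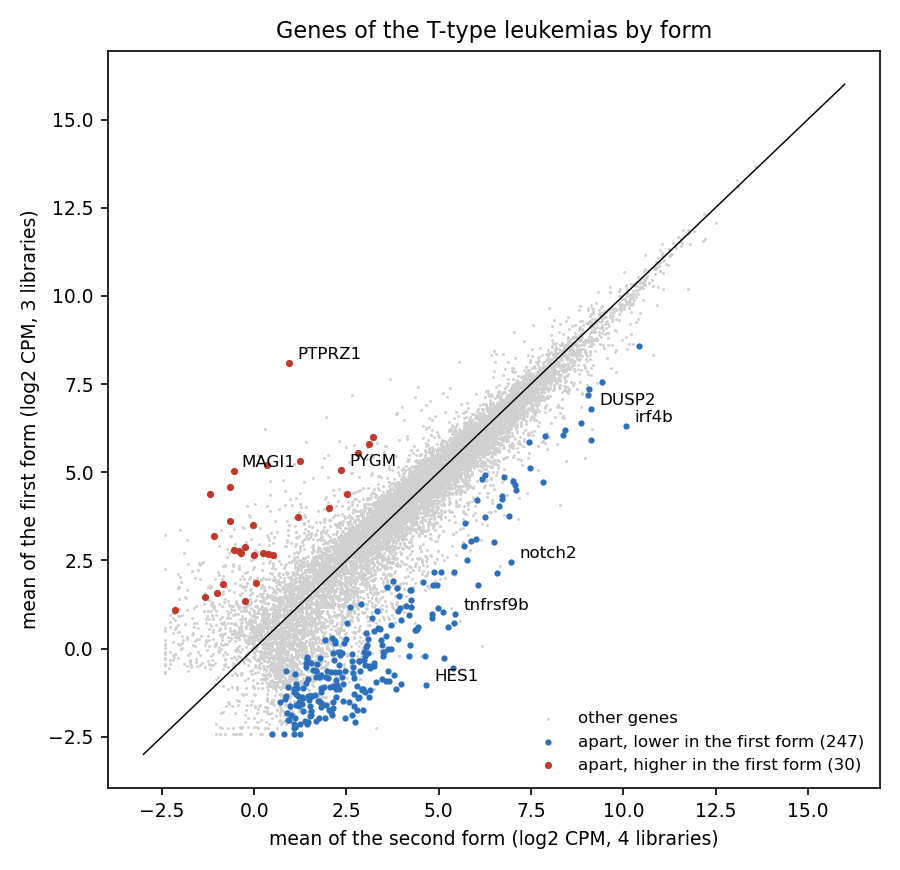
Mean log2 CPM of each of 13987 genes in the 4 libraries of the second form (x axis) and the 3 of the first form (y axis), with genes apart by at least 1 log2 unit in colour and the line of equal means in black. The 247 lower genes have a median level of -0.53 log2 CPM in the first form, and the 30 higher genes one of -0.02 in the second, where PYGM and others lie well above it.

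Most genes that were apart were low in both forms. The 247 lower genes had a median level of -0.53 log2 CPM in the first form and 2.72 in the second, and 174 of them stayed under 5 log2 CPM in all 7 libraries. Of these 247 genes 154 had a mean count under 10 in the first form, and so passed the filter through the form in which they were higher, as did 17 of the 30 higher genes. The counts of the gene lists below were made with the same filter. At least 100 counts on average were held by 73 of the lower and 12 of the higher genes. In bulk RNA, fewer cells of a type and less RNA per cell cannot be told apart, which applies to all lower genes.

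The counts of genes apart depended on single libraries, since each library of a small form can close or open a gap. Without hMYC-9, 194 genes were apart and higher and 481 apart and lower. The higher count was 48 without hMYC-2, 58 without hMYC-6, 71 without hMYC-8, 62 without hMYC-10, 46 without hMYC-11 and 53 without hMYC-14, and the lower count was then 284 to 365. All of the 30 and 247 genes remained apart in each of these, because leaving out a library can only widen a gap.

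The gene used to select the forms encodes, in mammals, a receptor-type protein tyrosine phosphatase best known from the nervous system. Its levels in the first form were 6.96, 8.62 and 8.73 log2 CPM, and in the second 0.74, 3.60, -1.52 and 0.99, which are 1650, 4545 and 4188 reads against 9, 125, 2 and 19. In the 5 other leukemias it did not exceed 0.31. Another identifier with the same name (ENSDARG00000020871) held at most 8 reads in any of the 7 libraries.

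Beyond the selecting gene, the named genes with the largest gaps among those higher in the first form were MAGI1, TTLL2 and EFNB3. MAGI1 (ENSDARG00000070145), a scaffold protein of cell junctions, stood at 3.62, 6.72 and 4.73 log2 CPM in the first form and at -1.51, 0.70, 0.41 and -1.84 in the second. EFNB3 (ENSDARG00000042277), an ephrin ligand of Eph receptors, stood at 4.35, 5.82 and 5.48 against 2.11, -0.59, 1.68 and -1.84. TTLL2 (ENSDARG00000077853), a tubulin-modifying enzyme, had 163, 259 and 318 reads in the first form and 0, 4, 21 and 0 in the second. For these genes every library of the first form was high, hMYC-14 was at or near the bottom of the second form, and hMYC-10 was highest for MAGI1 and EFNB3.

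PYGM (ENSDARG00000013317), glycogen phosphorylase of muscle, was the most even of the higher genes, with 5.02, 5.11 and 5.07 log2 CPM against 1.41, 3.41, 2.64 and 1.92. RUNX1T1 (ENSDARG00000003680), a transcriptional corepressor known in humans as a fusion partner of RUNX1 in leukemia, stood at 2.01, 3.91 and 2.45 against 0.23, -0.81, -0.56 and -1.09. MEF2B (ENSDARG00000093170), a transcription factor known in germinal centre B cells, stood at 1.9, 5.47 and 3.17 against -0.55, 0.31, -0.40 and 0.50. The spread within the first form was wide for MEF2B, where hMYC-10 was highest and hMYC-9 lowest, and in the other leukemias it ranged from -1.9 to 4.88.

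Of the remaining named genes with the largest gaps, SGCE (a sarcoglycan), TRIM46 (a microtubule organiser of axons), AMPH (which bends membranes in endocytosis), PPFIA2 (a liprin of synapses), cdh7b (a cadherin), ptgdsb.2 (a prostaglandin D synthase), SLC25A6 (a mitochondrial ADP/ATP carrier) and tlr3 (a sensor of double-stranded RNA) had first-form means of 1.46 to 3.2 log2 CPM. In the second form the means of these 8 genes ranged from -1.32 to 0.23. The first form did not stand alone for each of them. The 5 other leukemias reached 2.28 for tlr3, 3.85 for SGCE and 3.29 for PPFIA2, above at least 1 library of the first form. Among unnamed genes the largest gaps belonged to si:dkey-45k15.1 (ENSDARG00000061714), with a first-form range of 3.41 to 3.96 and a second-form range of -1.52 to 1.78, and C18H15orf48 (ENSDARG00000092903), with 5.65 to 6.27 and 2.87 to 3.57.

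**Figure D2:**
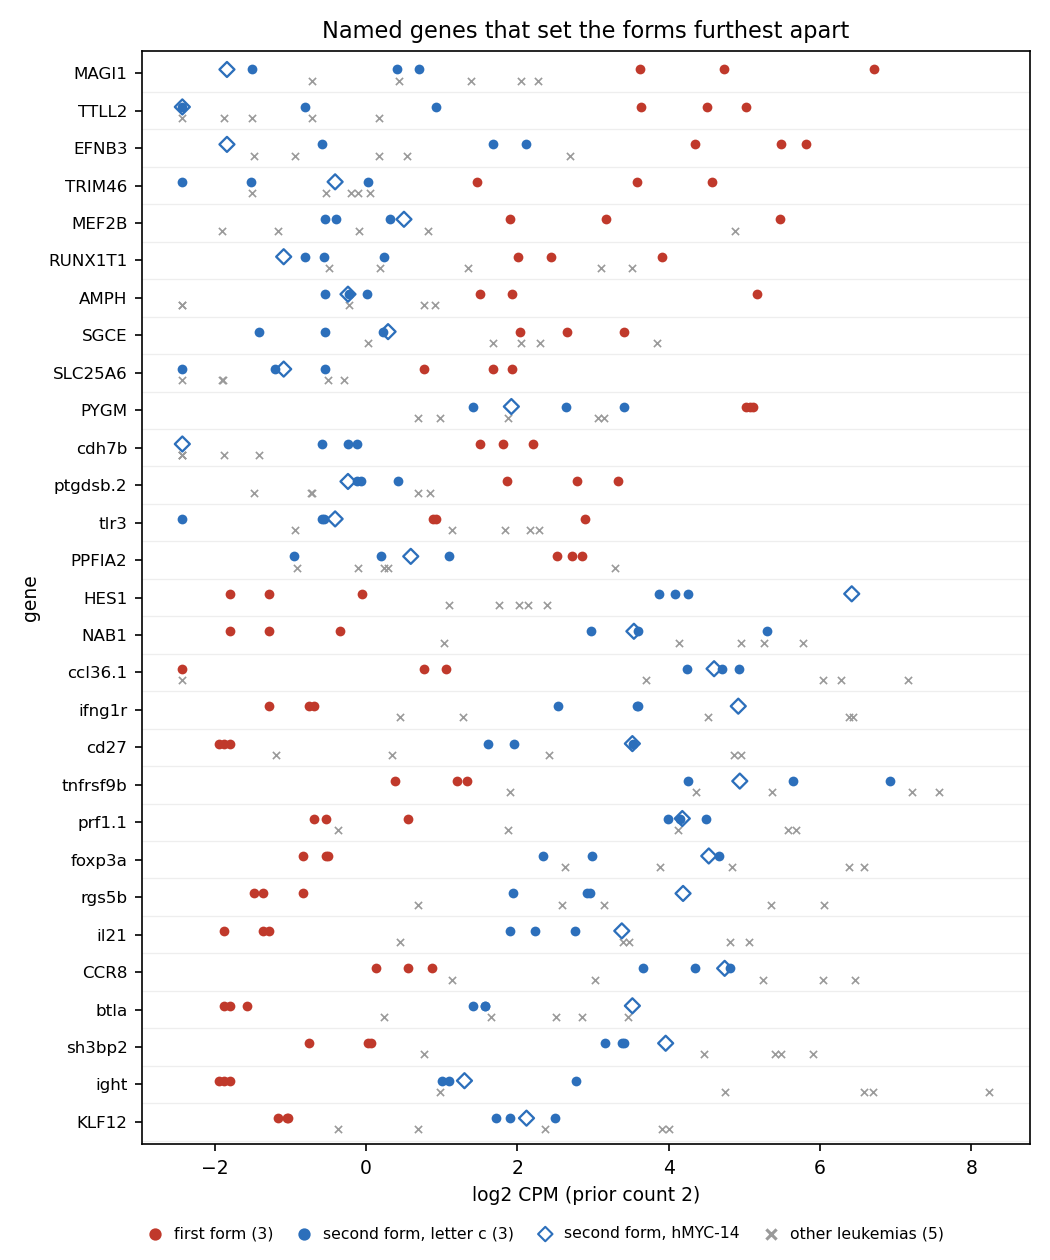
Log2 CPM of the named genes with the largest gap between the forms, 14 higher and 15 lower in the first form, with 1 point per library. Red points are the first form, blue points the second form with hMYC-14 as an open diamond, and grey crosses the 5 other leukemias. For the lower genes the other leukemias lie mostly at or above the second form. That hMYC-14 lies with the second form in each row follows from the rule that chose these genes.

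Genes of effector and regulatory T cells were low in the first form. The gene prf1.1 (ENSDARG00000030394), a perforin by which cytotoxic cells kill, stood at 0.55, -0.69 and -0.53 log2 CPM in the first form and 4.15, 3.99, 4.49 and 4.18 in the second. Its low level was not particular to the first form, since hMYC-13 stood at -0.37, and the other leukemias reached 5.68. For foxp3a (ENSDARG00000055750), the transcription factor of regulatory T cells, the values were -0.83, -0.51 and -0.53 against 4.67, 2.34, 2.98 and 4.53, and the 5 other leukemias ranged from 2.63 to 6.58. The receptor gene cd27 (ENSDARG00000105423), a costimulatory member of the TNF receptor family, had 1 read in each library of the first form and 69, 30, 45 and 119 reads in the second. In these 3 genes every library of the first form was low, and hMYC-14 lay inside the log2 CPM range of the 3 letter c libraries.

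Several genes of cytokines, chemokines, their receptors and costimulation were among those with the largest gaps, by which they were chosen. The second-form means were 3.66 log2 CPM for ifng1r (a relative of interferon gamma) and 2.57 for il21 (a cytokine of helper T cells). For btla (an inhibitory receptor), CCR8 (a chemokine receptor) and ccl36.1 (a chemokine) they were 2.02, 4.39 and 4.62. The first-form means of these 5 genes were -0.91, -1.51, -1.75, 0.52 and -0.20, in the same sequence. Both fish copies of tnfrsf9, a costimulatory receptor induced on activated T cells, were apart: tnfrsf9b stood at 1.2, 1.33 and 0.38 against 6.92, 4.25, 5.65 and 4.94, and tnfrsf9a at 0.40, 1.8 and -0.33 against 5.78, 3.55, 3.91 and 4.53. The transcription regulators NAB1 (a partner of EGR factors) and KLF12 (a repressor), the signalling adaptor sh3bp2, and rgs5b (a brake on G protein signals) also had lower values in each library of the first form, with differences of means of -4.99, -3.14, -3.70 and -4.23. Other genes of these kinds overlapped, such as cd28l, a relative of the costimulatory receptor cd28, at -1.04 to 3.41 in the first form and 0.70 to 3.06 in the second, and the cytokine receptor gene il2rb, described below.

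Counted over the lists, 6 of the 21 measured genes of mature and migrating T cells were apart and lower, against 1.77% of all genes. Apart and higher were 0, and 11 (52.4%) had no overlap and were lower, against 9.36% of all genes. The median difference of the list was -2.16 log2 units. Besides foxp3a, ifng1r and tnfrsf9a, the apart genes were IL10 (an anti-inflammatory cytokine), cd40lg (the ligand by which helper cells act on B cells) and faslg (a death ligand). Apart from tnfrsf9a, the first-form values of these genes did not exceed -0.51, and they passed the mean count filter through the second form. Of the other leukemias, hMYC-13 also lay below every library of the second form for IL10 (-1.89), cd40lg (-0.72), faslg (-0.72), tnfrsf9a (0.26) and ifng1r (0.45). For foxp3a (2.63) it did not. Other mature genes overlapped: CCR7, which guides naive cells to lymph nodes in mammals, stood at 4.59, 3.70 and 5.57 against 3.19, 5.30, 4.04 and 4.97. The summed level of the list was 303 to 564 CPM in the first form and 563 to 1208 in the second.

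Among 11 measured genes of natural killer lysins and cytotoxic cells, 5 were apart and lower, against 1.77% of all genes, and 0 apart and higher. Lower without overlap were 6 (54.5%, against 9.36% of all genes), and the median difference was -2.25. The 5 were prf1.1, tbx21 (the T-bet factor of cytotoxic and type 1 helper cells), faslg, the chemokine ccl38.6 and the immune receptor nitr4a. In the first form they did not exceed 0.55 log2 CPM, and they passed the mean count filter through the second form. Only 11 of the list's 25 identifiers passed, so these shares depend on the filter. In hMYC-13 these 5 genes stood at -0.37, -1.19, -0.72, 0.90 and -2.43, each below every library of the second form. The granzyme genes gzma and gzm3.4 overlapped, with first-form ranges of -1.48 to 1.86 and 1.25 to 2.05 and second-form ranges of -1.08 to 1.31 and 1.0 to 1.66. The gene il2rb, a receptor chain for IL-2 and IL-15, varied most within the first form, with 5.11, 8.52 and 0.49 log2 CPM against 6.65, 6.22, 7.01 and 7.93.

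**Figure D3:**
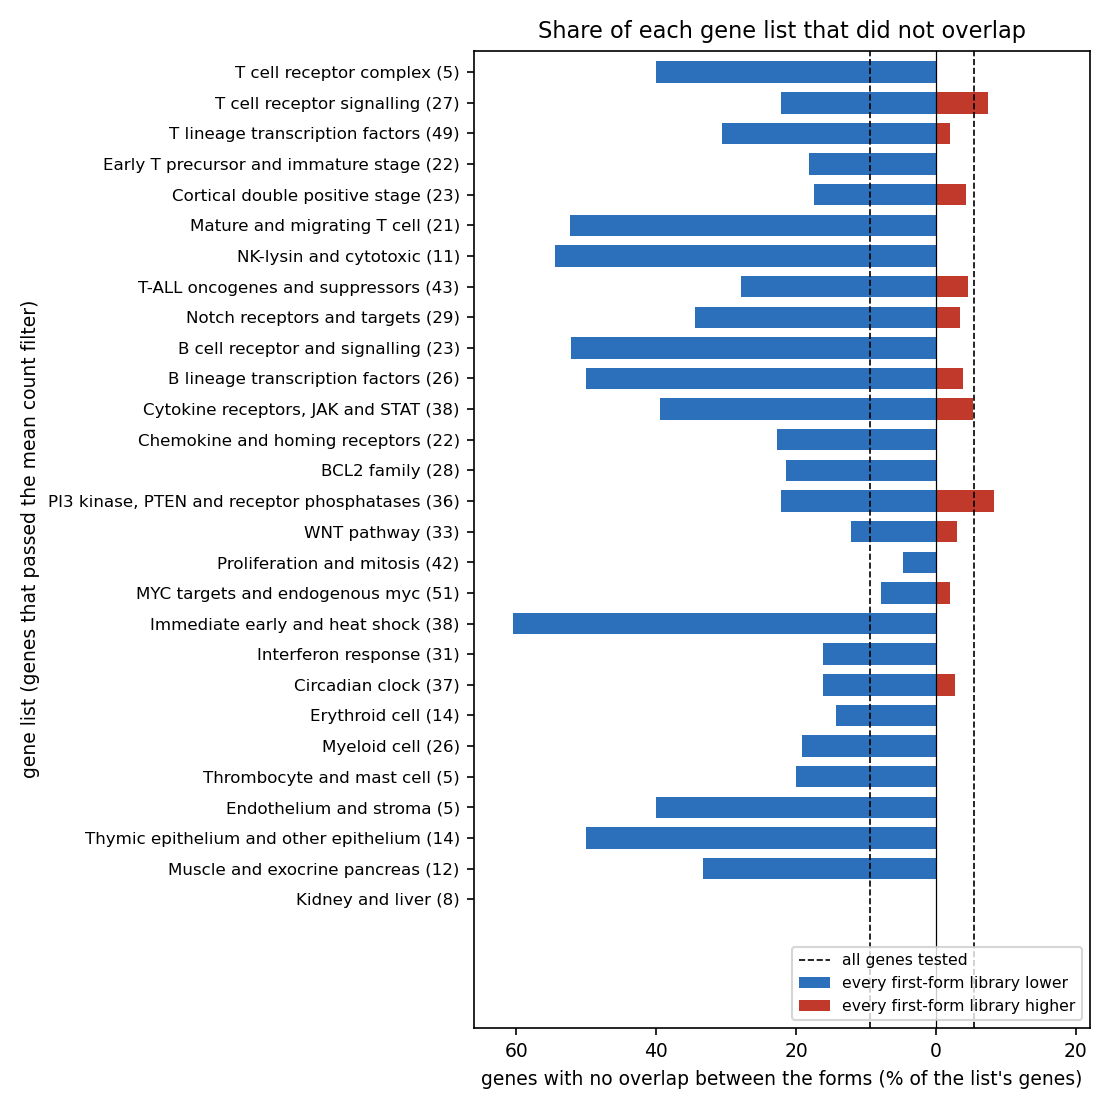
Share of the measured genes of each of 28 gene lists for which the forms did not overlap, to the left where each library of the first form was lower and to the right where each was higher, in percent of the genes given in brackets. Dashed lines mark all genes tested, 9.36% lower and 5.43% higher. Immediate early, cytotoxic, mature T, B cell and epithelial lists extend furthest to the left. The proliferation list (4.76%) and MYC target list (7.84%) lie inside the line.

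Recombinase and coreceptor genes of the cortical stage were high in both forms. RAG1 (ENSDARG00000052122), which cuts antigen receptor genes for rearrangement, stood at 13.45, 12.26 and 13.64 log2 CPM in the first form and at 13.38, 12.88, 12.90 and 13.25 in the second. For RAG2 (ENSDARG00000052121), its partner, the values were 9.25, 9.42 and 9.0 against 8.84, 9.21, 9.08 and 8.86. The coreceptor genes overlapped as well, with cd4-1 at 9.53, 8.01 and 9.12 against 10.06, 9.38, 8.90 and 9.08, and cd8a at 7.69, 8.08 and 8.26 against 8.37, 8.34, 7.71 and 7.93. RNA of both coreceptors was thus found in each of the 7 leukemias. Bulk RNA does not show whether the same cells held both. Also found were cd8b and arpp21 (a thymocyte phosphoprotein, 9.54 to 10.57 in the first form and 9.90 to 10.24 in the second). These levels were not particular to the T-type leukemias, since hMYC-13 stood at 12.73, 9.31 and 8.17 for RAG1, cd4-1 and cd8a. In hMYC-12 they were 11.67, 8.79 and 8.17, while hMYC-3, hMYC-4 and hMYC-5 lay below all 7 for these genes.

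Of 23 measured cortical genes 4 (17.4%, against 9.36% of all genes) were lower in the first form without overlap. Higher without overlap was 1 (4.35%, against 5.43%), and the median difference was -0.46. Apart and lower were 2, against 1.77% of all genes, and 0 were apart and higher. The apart genes included 1 of 2 identifiers named CXCR4 (ENSDARG00000057633), a chemokine receptor of thymocytes and precursors. It stood at 1.54, 3.1 and 0.77 against 4.65, 4.86, 4.26 and 6.01. THEMIS, which tunes receptor signals during selection, was higher in the first form without overlap but with a gap under 1 unit, at 9.05, 8.79 and 9.58 against 7.96, 8.62, 8.4 and 7.35, and cd28 was lower in the same way, at 0.55, 0.39 and 0.85 against 2.66, 1.78, 2.48 and 3.99.

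**Figure D4:**
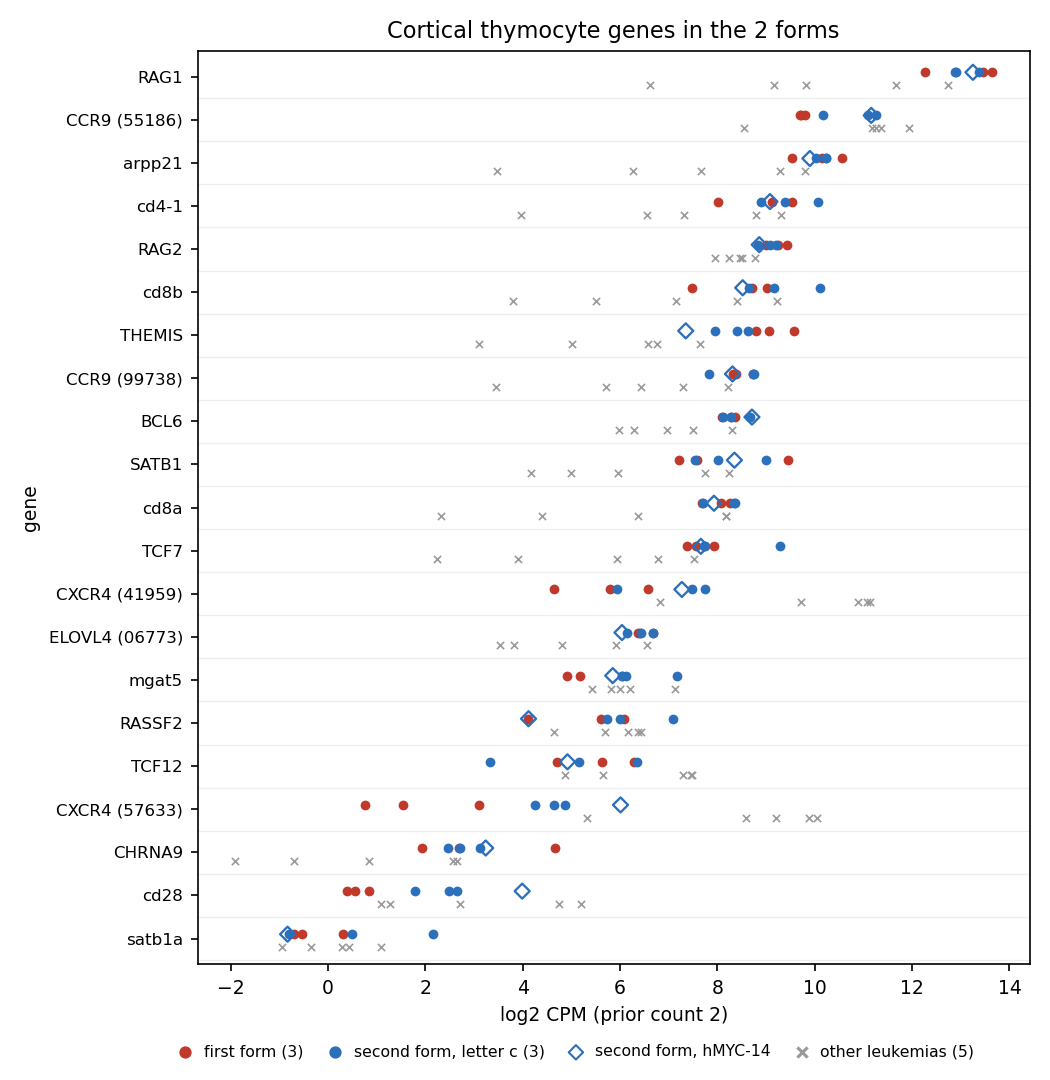
Log2 CPM of 21 of the 23 measured genes of the cortical thymocyte list in each library, ordered by level, with the last 5 digits of the identifier where a name has 2 identifiers. Red points are the first form, blue points the second form with hMYC-14 as an open diamond, and grey crosses the 5 other leukemias. The forms overlap for RAG1, RAG2, cd4-1, cd8a and cd8b, while the CXCR4 identifier at the lower level is lower in the first form.

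Genes of the early precursor stage mostly overlapped between the forms. Of 22 measured genes 1, fcer1g (a signalling chain of Fc receptors that myeloid cells also carry), was apart and lower, and 0 apart and higher. Of all genes 1.77% were apart and lower. Lower without overlap were 4 (18.2%, against 9.36% of all genes), 0 were higher without overlap, and the median difference was -0.38. The interleukin 7 receptor gene il7r, which early thymocytes need, stood at 8.15, 6.53 and 8.11 against 7.28, 8.30, 7.97 and 8.53. KIT, the stem cell factor receptor of early precursors, reached 3.46 in hMYC-11 and was at 0.88 or below in the other 2 libraries of the first form, against -2.43 to 0.93 in the second.

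Several transcription factors of T lineage identity overlapped or differed by gaps under 1 unit. GATA3, which sets T cell fate, stood at 9.74, 9.51 and 9.90 against 9.32, 8.74, 9.39 and 7.87, higher in the first form without overlap but with a gap under 1 unit. RUNX3 ranged from 10.88 to 11.47 in the first form and from 10.19 to 10.88 in the second, and TCF7, a Notch target of early T cells, from 7.38 to 7.94 and from 7.66 to 9.29. Of 49 measured genes 9 were apart and lower, against 1.77% of all genes, and 0 apart and higher. Lower without overlap were 15 (30.6%, against 9.36% of all genes), and the median difference was -0.48.

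The 9 included foxp3a and tbx21, already described, and NR4A3 and EGR2, induced by receptor signals. Also among them were PRDM1 (a transcriptional repressor that promotes terminal differentiation), ID3 (an inhibitor of E proteins induced by receptor signals) and both identifiers named FOXO1. FOXO1 governs homing and survival genes of resting T cells, and of B cells. ENSDARG00000099555 stood at 0.40, 1.52 and 0.93 against 5.92, 3.94, 2.92 and 4.03, and ENSDARG00000061549 at -1.94, -0.19 and -1.03 against 4.31, 3.52, 1.61 and 1.73. ID3 (ENSDARG00000054823) stood at 3.23, 4.26 and 3.67 against 6.07, 5.62, 6.54 and 6.78. For these genes hMYC-14 was close to the letter c libraries of the second form.

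The main kinase and adaptor genes of the T cell receptor pathway overlapped between the forms, and 4 other members were apart and lower in the first. ZAP70, the kinase recruited to the receptor, ranged from 9.15 to 9.46 in the first form and from 9.01 to 10.16 in the second, and lat, its adaptor substrate, from 8.17 to 8.71 and from 7.99 to 8.76. Of 27 measured signalling genes 6 (22.2%, against 9.36% of all genes) were lower without overlap. Higher without overlap were 2 (7.41%, against 5.43%), and the median difference was -0.23. Apart and lower were 4, against 1.77% of all genes, and 0 were apart and higher. The 4 included ptpn22 (a phosphatase that limits receptor signals), txk (a Tec family kinase) and lcp2b (1 of 2 copies of the adaptor SLP-76). The other adaptor copy, lcp2a, overlapped at 6.11 to 6.59 and 6.52 to 7.69.

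Of 16 symbols listed for the receptor complex and its costimulatory receptors only 5 were matched by name. No cd3 gene and no gene of the receptor alpha chain was among them. Of these 5 genes 1 was apart and lower, against 1.77% of all genes. Lower without overlap were 2 (40%, against 9.36% of all genes), the apart gene and cd28, a costimulatory receptor and not a chain of the complex. The apart gene was cd247l, a relative of the zeta chain. It had 0, 1 and 1 reads in the first form and 11, 8, 22 and 34 in the second. The zeta chain gene cd247 overlapped at 6.44 to 6.80 and 6.62 to 7.41. The constant gene trbc1 of the receptor beta chain overlapped and varied within both forms, with 7.97, 9.80 and 7.19 against 8.97, 8.27, 4.22 and 8.18, and hMYC-8 was lowest.

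Notch target genes and 1 Notch receptor were low in the first form. HES1 (ENSDARG00000006514), a repressor that Notch induces, had the largest gap among lower genes with a name, at -1.28, -0.05 and -1.8 log2 CPM against 4.25, 3.87, 4.08 and 6.42, a difference of means of -5.70. HEY1 (ENSDARG00000070538), a related repressor, had 1, 2 and 3 reads in the first form and 23, 25, 123 and 76 in the second. The receptor gene notch2 (ENSDARG00000043130) stood at 2.01, 3.95 and 1.39 against 7.70, 7.03, 5.75 and 7.34. Its low level was not particular to the first form, since hMYC-13 stood at 3.93. In hMYC-3, hMYC-4, hMYC-5 and hMYC-12 notch2 ranged from 6.93 to 7.64. Compared with the 5 other leukemias, in which HES1 ranged from 1.09 to 2.39, the first form was lower and the second form higher, so HES1 set all 3 groups in order without overlap.

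Other members of the pathway followed in part. Of 29 measured Notch genes 5 (HES1, HEY1, notch2 and both MYC genes) were apart and lower, against 1.77% of all genes. Apart and higher were 0, lower without overlap 10 (34.5%, against 9.36% of all genes), and the median difference was -0.34. NRARP (ENSDARG00000091419) was lower without overlap with a gap of 0.99, at 1.71, 2.64 and 2.18 against 4.05, 3.93, 3.63 and 5.29. Another identifier of that name (ENSDARG00000018958) overlapped. DTX1, a Notch target of early T cells, overlapped at 2.83 to 4.07 and 3.81 to 4.76. One identifier named NOTCH1 (ENSDARG00000103554) was lower without overlap at -0.09 to 0.38 against 0.73 to 3.71, and the other (ENSDARG00000052094) overlapped. NOTCH3 (ENSDARG00000052139) divided the first form itself, with -1.94 in hMYC-9, 6.36 in hMYC-10 and 5.12 in hMYC-11 against -1.09 to 0.58 in the second form, and the ligand gene dll4 divided the second, with 7.30, 7.34 and 6.79 against 3.53, 5.33, 8.07 and 0.50.

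The fish myc genes MYC and mych were lower in the first form, while most genes of the MYC list overlapped. The name table gives MYC to 2 identifiers: ENSDARG00000007241 stood at 4.92, 3.28 and 4.75 against 7.36, 5.92, 6.75 and 6.79, and ENSDARG00000045695 at 3.56, 3.27 and 3.88 against 5.49, 5.27, 6.38 and 5.67. The related gene mych stood at 6.49, 5.15 and 6.44 against 7.53, 7.55, 8.38 and 8.02. Of the other leukemias, hMYC-13 also lay below every library of the second form, at 4.11 and 4.18 for the MYC genes and 6.16 for mych. Of 51 measured genes of the MYC list these 3 were apart and lower, against 1.77% of all genes, and 0 apart and higher. Lower without overlap were 4 (7.84%, against 9.36% of all genes), and 1 was higher without overlap. The median difference of the list was -0.12, which was 0.04 with library totals alone as the scale and 0.03 without hMYC-2. The nucleolar gene ncl, for example, ranged from 10.58 to 11.11 in the first form and from 10.73 to 12.01 in the second.

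Proliferation genes did not separate the forms. Of 42 measured genes 0 were apart in either direction, and 2 (4.76%, against 9.36% of all genes) were lower in the first form without overlap. The median difference was -0.25, which was 0.10 without hMYC-8. The marker mki67 stood at 8.64, 8.36 and 8.30 against 8.71, 8.14, 10.29 and 9.26, and hMYC-8 held the highest level of mki67, TOP2A and PCNA among the 7 libraries.

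Residual B cell genes were lower in the first form for a large share of the receptor pathway and of the lineage factors, while PAX5 and EBF1 overlapped. SYK (ENSDARG00000008186), a kinase of the B cell receptor that early T cells also use, stood at 1.29, 1.83 and -0.16 log2 CPM against 4.93, 5.46, 4.24 and 4.61. The Src family kinase gene blk (ENSDARG00000007783) had 12, 9 and 3 reads against 36, 62, 102 and 119. The heavy chain gene ight (ENSDARG00000096280), of the antibody class particular to fish, had 1 read in each library of the first form and 11, 69, 24 and 24 in the second. The 5 other leukemias ranged from 6.16 to 10.33 for SYK, from -0.37 to 5.58 for blk and from 0.97 to 8.24 for ight, so the T-type leukemias of the second form had less SYK than any of them but not less blk.

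The chain genes cd79a and cd79b were lower in all 7 leukemias than in the 5 others, a direction to which the selection on blnk contributes. The signalling chain gene cd79a stood at 0.55, 2.15 and 1.15 against 2.27, 3.19, 3.07 and 3.15, and cd79b at -1.57, 0.29 and -1.37 against 1.22, 3.2, 1.82 and 0.92, while the 5 other leukemias ranged from 4.19 to 8.21 and from 4.19 to 8.42. For both genes the forms did not overlap, with gaps under 1 unit. PAX5, the factor of B cell identity, stood at -1.94, 2.43 and -2.43 against 1.0, 2.59, 1.44 and 0.05, and EBF1 (ENSDARG00000099849), its partner, at 0.40, 2.70 and -1.37 against 1.99, 1.82, 0.93 and 0.68. The overlap of PAX5 and EBF1 came from hMYC-10, which lay in the range of the second form or above it for both. The heavy chain gene ighm overlapped, with 4.53, 3.14 and 3.49 against 3.78, 3.79, 5.46 and 7.67, and hMYC-14 exceeded the highest of the 5 other leukemias, 6.98.

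Of 23 measured genes of the B cell receptor pathway 4 were apart and lower, against 1.77% of all genes, and 0 apart and higher. The 4 were SYK, blk, ight and the selecting gene blnk. Lower without overlap were 12 (52.2%, against 9.36% of all genes), and the median difference was -1.46. The summed level of the list was 513 to 962 CPM in the first form, 710 to 1480 in the second and 785 to 7234 in the other leukemias, so the sums of the forms overlapped. Of 26 measured B lineage transcription factors 7 were apart and lower, against 1.77% of all genes, and 1, MEF2B, apart and higher. Lower without overlap were 13 (50%, against 9.36% of all genes), and the median difference was -1.45. The 7 were not specific to B cells: irf4b (8.21, 4.56 and 6.13 against 9.44, 9.84, 11.14 and 9.91), XBP1, PRDM1, ID3, pou2f2b and both FOXO1 genes also act in activated T cells or plasma cells.

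Many immediate early genes, which rise within minutes of stimulation or cell handling, were lower in the first form, while others overlapped. Of 38 measured immediate early and heat shock genes 8 were apart and lower, against 1.77% of all genes, and 0 apart and higher. Lower without overlap were 23 (60.5%, against 9.36% of all genes), the largest share of the 28 lists, and the median difference was -1.60. The 8 were FOSL1, JUNB (ENSDARG00000074378), EGR2, egr2a, DUSP2 (a phosphatase induced in activated lymphocytes), ZFP36L1 (ENSDARG00000016154) and both MYC genes. DUSP2 stood at 7.02, 7.21 and 6.11 against 8.36, 9.17, 9.07 and 9.94, whereas NR4A1 overlapped, at 12.51, 10.71 and 11.48 against 11.75, 12.32, 12.24 and 12.37. FOS (7.25 to 8.45 against 7.86 to 9.73) and egr1 (7.14 to 9.40 against 7.91 to 10.94) overlapped too, as did FOSB, ier2a, ier2b and KLF6. The summed level of the list was 6490 to 12821 CPM in the first form and 15518 to 21907 in the second, without overlap. It was not particular to the first form, since hMYC-13 stood at 7315 CPM. How long cells were sorted or kept is not in the labels, and the part of stimulation or handling in the lower T cell, B cell and myc genes was not tested.

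The remaining lists held few apart genes, beside 1.77% of all genes apart and lower. Of 38 measured genes of cytokine receptors with JAK and STAT members, 2 were apart and lower, among them CISH (an inhibitor that STAT5 induces). Lower without overlap were 15 (39.5%, against 9.36% of all genes), and 2 were higher without overlap. Among 37 clock genes 2 were apart and lower, the repressors BHLHE40, at 5.29, 4.26 and 4.63 against 7.02, 7.4, 8.45 and 8.38, and BHLHE41. In the WNT list 1 of 33 genes, the ligand gene WNT11, was apart and lower, at 4.94, 2.60 and 3.77 against 7.57, 7.05, 6.68 and 6.34. The BCL2 family list held 0 apart genes of 28, and the list of PI3 kinase and phosphatase genes held only the selecting gene of 36. Of 43 measured T cell leukemia oncogenes and suppressors 2 were apart, both MYC genes, and of 31 interferon response genes 1. A single apart gene, as in the WNT and interferon lists, is near the share over all genes and is no result about these lists. The chemokine receptor list held 1 apart gene of 22, the CXCR4 identifier above. A gene can stand in several lists, as both MYC genes do.

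Markers of other cell types in the sort were compared over the same libraries. The summed level of the 22 erythroid genes was 31 to 73 CPM in the first form and 62 to 270 in the second, and that of 17 thrombocyte and mast cell genes was 9 to 19 and 25 to 82. For 31 endothelial and stromal genes the sums were 9 to 14 and 18 to 33, and for 29 myeloid genes 1397 to 1822 and 1333 to 2644. Epithelial genes summed to 162 to 209 and 65 to 376, muscle and exocrine pancreas genes to 12 to 217 and 8 to 171, and kidney and liver genes to 235 to 377 and 353 to 661. Thrombocyte and endothelial sums did not overlap between forms and were small, and the others overlapped.

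Apart and lower genes among these markers were 2 of 26 measured myeloid genes (fcer1g and srgn), 1 of 14 epithelial genes (krt18a.1), 2 of 12 muscle and pancreas genes (prss1 and prss59.1), and 0 of 14 erythroid, 5 thrombocyte, 5 endothelial and 8 kidney and liver genes. No gene of these lists was apart and higher, and of all genes 1.77% were apart and lower. Lower without overlap, against 9.36% of all genes, were 7 epithelial (50%), 5 myeloid (19.2%) and 4 muscle and pancreas genes (33.3%). So were 2 endothelial (40%), 2 erythroid (14.3%), 1 thrombocyte (20%) and 0 kidney and liver genes. Median differences of these lists ranged from -2.54 (muscle and pancreas) to -0.58 (thrombocyte), with -1.37 for epithelial genes. The pancreatic trypsin gene prss1 reached 4.49 log2 CPM in hMYC-6 and 2.94 in hMYC-14 and was at or below 0.59 in the other 5 libraries. Among defining markers, the muscle gene ckma did not exceed -1.51, and the endothelial genes kdrl and cdh5 did not exceed -0.59. The thymic epithelial gene foxn1 had no read outside hMYC-8. Not every muscle gene was as low as ckma. TNNT3 (ENSDARG00000068457) reached 7.70 in hMYC-11 and 3.06 in hMYC-10, and did not exceed -0.56 in the other 5 libraries. The muscle gene atp2a1 was also highest in hMYC-10. The globin gene hbaa1 reached 7.01 in hMYC-14, and the lysozyme gene lyz 5.38 in hMYC-6. The part of other cells in the genes that were lower in the first form was not tested.

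The library hMYC-14 shares the letter d with the first form, so it is the 1 library in which form and letter differ. Against the 3 letter c libraries of the second form alone, 53 genes (0.379%) were apart and higher in the first form and 333 (2.38%) apart and lower. In hMYC-14 30 of the 53 (56.6%) and 247 of the 333 (74.2%) were also at least 1 unit from the first form in the same direction, which are the genes reported above. For 23 of the 53 (43.4%) and 85 of the 333 (25.5%) hMYC-14 lay within 1 unit of the range of the first form. These genes did not follow the form by the gap used here. Inside the range of the first form itself hMYC-14 lay for 7 of the 53 and 25 of the 333.

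Genes that followed the letter among the 7 T-type leukemias were named after their values were seen. The respiratory chain genes cox6b1 and ndufa4b stood at 7.52, 7.0 and 7.18 and at 7.48, 7.52 and 6.42 in the first form. In hMYC-14 they stood at 6.70 and 7.24. The letter c libraries of the second form did not exceed 5.08 and 4.91. The ubiquitin ligase gene PELI3 stood at 2.94, 3.44 and 3.26 in the first form and 2.77 in hMYC-14, against -1.51, 0.42 and -0.25. Among lower genes, the tetraspanin gene cd37, a surface marker of B cells, had 0.22, 0.39 and -0.53 in the first form. It had 0.84 in hMYC-14, against 3.81, 4.27 and 3.15 in the letter c libraries of the second form. In the 5 other leukemias the letters overlapped for cox6b1 and ndufa4b but not for PELI3 and cd37. For cox6b1, hMYC-3 and hMYC-5 (letter c, 6.86 and 6.67) lay above hMYC-12 (letter d, 6.03) and below hMYC-13 (7.17). For ndufa4b they stood at 6.87 and 6.64, against 6.32 and 8.55.

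The letter was also compared in the 5 other leukemias, by a stricter rule, so the shares cannot be set against those of hMYC-14. There, hMYC-12 and hMYC-13 (letter d) lay at least 1 unit above hMYC-3, hMYC-4 and hMYC-5 (letter c) for 10 of the 53 higher genes (18.9%), against 2.78% of all genes. They lay at least 1 unit below them for 43 of the 333 lower genes (12.9%), against 2.49% of all genes. The opposite order held for 0 of the 53 and 7 of the 333. In these 5 leukemias the letter goes with the B cell adaptor blnk, at 9.03, 8.49 and 8.91 in hMYC-3, hMYC-4 and hMYC-5 and at 6.68 and 4.65 in hMYC-12 and hMYC-13, so letter and B cell level cannot be told apart there.

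The 247 lower genes were also compared with the 5 other leukemias. At least 1 unit above each library of the first form lay 231 of them in hMYC-12 (93.5%), 223 in hMYC-4 (90.3%), 196 in hMYC-3 (79.4%), 176 in hMYC-5 (71.3%) and 97 in hMYC-13 (39.3%). Their median level was -0.34, -0.51 and -0.53 log2 CPM in the first form, 2.96, 2.52, 2.48 and 3.15 in the second, and 1.09 in hMYC-13, the other leukemia closest to the first form. The 30 higher genes lay at least 1 unit below the first form in 25 cases in hMYC-3, 24 in hMYC-5, 23 in hMYC-4, 21 in hMYC-12 and 15 in hMYC-13.

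**Figure D5:**
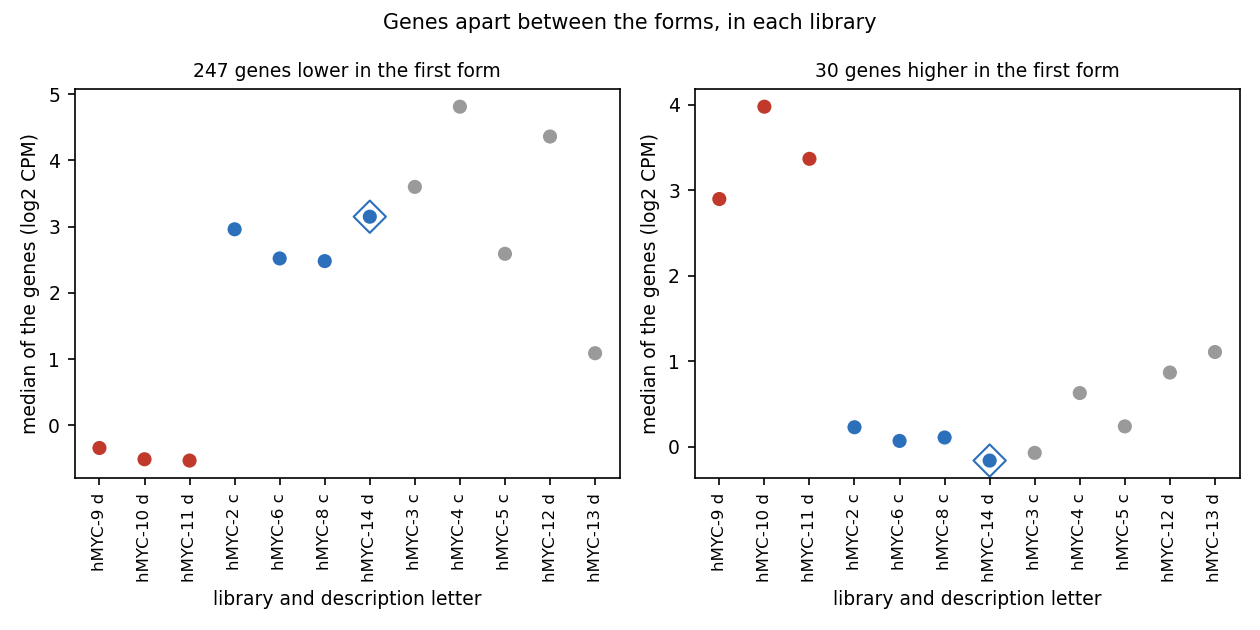
Median log2 CPM of the 247 genes lower (left) and the 30 genes higher (right) in the first form, in each of 12 libraries with its description letter. Red points are the first form, blue points the second form with hMYC-14 ringed by a diamond, and grey points the 5 other leukemias, of which hMYC-13 is lowest on the left at 1.09.

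The first form was not uniform. Of 13987 genes 214 lay at least 2 log2 units above the 6 other T-type libraries in hMYC-10, against 22 in hMYC-9 and 34 in hMYC-11, and 127, 23 and 32 lay at least 2 units below. In the second form hMYC-2 had the most such genes above, 190, followed by hMYC-14 with 59, hMYC-8 with 35 and hMYC-6 with 32. Counted separately, 90 genes were at least 2 units higher in both hMYC-10 and hMYC-11 than in the 5 other T-type libraries. Some of these, such as eve1, are also among the 214 of hMYC-10. In the opposite direction, 29 were as much lower. That hMYC-9 lay on the side of the second form for these genes follows from how they were chosen.

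The genes shared by hMYC-10 and hMYC-11 were named after their values were seen. One of 2 identifiers named PORCN (ENSDARG00000052558), the enzyme that attaches a lipid to WNT ligands, stood at 10.21 and 8.25 log2 CPM there, at 0.22 in hMYC-9 and at -1.09 to 1.31 in the second form. The homeobox gene eve1 stood at 7.77 and 4.33 and had no read in the other 5 libraries. The adhesion receptor gene cd44a stood at 7.87 and 7.09 against -1.94 in hMYC-9 and -1.42 to 2.69 in the second form, alongside NOTCH3 above. Lower in the pair were CCND1, a cyclin of G1 phase (2.36 and 2.15, against 6.01 in hMYC-9 and 5.61 to 7.10 in the second form), and the serum-induced kinase gene sgk1 (-0.51 and -0.76, against 3.42 and 4.66 to 6.52).

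Genes most like the selecting gene were sought by Pearson's r of log2 CPM over the 12 libraries, which share the letters and the scaling. The highest were CBR1 (a carbonyl reductase, r = 0.943), 1 of 2 identifiers named MBOAT2 (ENSDARG00000042551, an acyltransferase of phospholipids, 0.932), dcp1a (an mRNA decapping factor, 0.931), atn1 (a transcriptional corepressor, 0.929) and pgam1b (a glycolysis enzyme, 0.921). CBR1 stood at 7.45, 7.69 and 7.81 in the first form and at 7.10, 7.11, 6.64 and 6.62 in the second, without overlap but with a gap under 1 unit. The same held for pgam1b, at 6.23, 6.44 and 6.16 against 5.58, 5.78, 5.54 and 5.96, while the forms overlapped for MBOAT2, dcp1a and atn1. None of the 5 was apart by 1 unit, and since the selecting gene chose them, nothing is read from their order.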

How the data were processed

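Poly(A) RNA was extracted with Trizol and made into stranded libraries, per the labels' protocols. The authors deposited 1 table of raw read counts for 32105 zebrafish gene identifiers in 13 columns, each named as a sample. The submitters' processing notes name bcl2fastq, STAR, Picard, featureCounts and the build GRCz10, without versions. Whether counting used strand is not given in the sources used here, so antisense, overlapping and near-identical genes are uncertain. Names came from a table that covered 26269 identifiers (81.8%) and gives some human-form names to 2 fish genes, which are then told apart by identifier. The hMYC-1 column was left out: of 11072 genes with 10 or more and under 1000 counts summed over hMYC-10 to hMYC-14, 98.6% had at least that sum in hMYC-1.

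Counts of 12 columns were scaled by TMM factors and turned into log2 CPM with a prior count of 2 (edgeR 4.0.16, limma 3.58.1, R 4.3.3), which understates differences of low genes. Genes with a mean count of at least 10 over the 7 libraries were compared, and called apart at a gap of 1 log2 unit. The forms were made from measured values, so no test was run. Named genes were those of the selection, the markers, the 15 largest gaps with a gene name in each direction, and list genes that were apart; a few of these are not reported here. The members and the 28 gene lists were chosen with earlier results of these data known. List symbols were matched by name, and the counts of each list cover its identifiers that passed the filter. Alternatives were DESeq2 1.42.0 size factors, TMM factors over 7 libraries, library totals, a prior count of 0.5, other filters and gaps, letter d alone, and leaving out each library. The calling of gaps was tested on simulated data. Other steps used Python 3.11.15, numpy 2.4.6, pandas 2.3.3 and matplotlib 3.10.9.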

Additional observations from a re-analysis of the deposited data

Results flagged for a closer look

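In 6 of 80 named genes 1 library of the second form lay far from the other 3, by the ratio of its gap to the range, which chance gives in about 1 in 20 groups. In hMYC-14 HES1 reached 6.42 log2 CPM and btla 3.52, both above the letter c libraries and further from the first form. In hMYC-6 ight reached 2.77 and si:dkey-45k15.1 reached 1.78. In hMYC-2 lck stood at 11.38, above the others, and tlr3 at -2.43, with no read. No explanation was weighed for these values.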

How the results depend on the processing

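Of 1437 values under an alternative, 1352 stayed within the spread allowed and 85 moved further, among them 984 differences of named genes, of which 943 stayed. Of the named genes that were apart, 0 differences reversed their direction. The gap of 1 unit by which they were chosen leaves little room for a reversal, and leaving out libraries cannot cause one. The counts of genes apart, 30 higher and 247 lower, were 34 and 230 with DESeq2 size factors, 37 and 224 with TMM factors over the 7 libraries, 40 and 194 with library totals, 34 and 274 with a prior count of 0.5, 35 and 322 without a filter, and 29 and 260 with a CPM filter. Library totals moved the median difference of all genes to 0.12 log2 units. With any gap above 0 the counts were 759 and 1309, with a gap of 2 units 5 and 65, and with a mean count of at least 100, a filter added after seeing the data, 12 and 73. Within letter d, where hMYC-14 alone stands for the second form, they were 509 and 980. Leaving out 1 library gave 46 to 194 higher and 284 to 481 lower genes, the highest of both without hMYC-9. List medians changed sign in 9 cases: for the MYC list with library totals, without hMYC-2 and within letter d (0.01), for proliferation without hMYC-8, for thrombocyte (0.08) and kidney and liver genes (0.16) without hMYC-14, for WNT genes within letter d (0.35), and for receptor complex (0.26) and muscle and pancreas genes (4.87) at a mean count of at least 100. The cause was not tested. At that mean count the endothelial list held no gene and gave no value. No paired analysis was possible because the labels put all libraries in 1 group and share no replicate number between the forms. With 3 and 4 libraries, and many apart genes at a few reads, the depth limits what can be said of genes that had no read in a form.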
